A study of Mus musculus with 6 samples.

Results

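Extracellular proteases cut and remodel the matrix through which lung tubes grow. In the plasminogen system, the serine proteases tPA (Plat) and uPA (Plau) convert plasminogen to plasmin, uPA acts on the cell surface bound to its receptor (Plaur), and serpins such as protease nexin 1 (Serpine2) block the activators. Matrix metalloproteases are made as inactive precursors. The membrane-anchored enzyme MMP14 activates pro-MMP2 with TIMP2 as the bridge between them, and the TIMPs inhibit the active enzymes.

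The 9 genes described are Plat, Plau, Plaur, Serpine2, Mmp2, Mmp14, Timp1, Timp2 and Timp3, found by symbol among 24341 genes of an expression table of embryonic mouse lung. RNA-seq was made from dissected lungs of C57BL/6 embryos at E12.5. The 3 mutant libraries (Mut) carried Shh-Cre;Sin3a flox/flox. Controls (hetCont, 3 libraries) carried Shh-Cre;Sin3a flox/+. Both groups thus carried the Cre, which works in the lung endoderm, and a floxed Sin3a allele, and only the controls kept an unfloxed one. Sin3a encodes the scaffold of a histone deacetylase corepressor. Whole lungs were sequenced, so the values mix epithelium with mesenchyme, vessels and blood, and fewer cells of a type cannot be told apart from less RNA per cell. The labels do not say whether a library came from 1 embryo or several, so p-values measure the spread between libraries.

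Values are FPKM, fragments scaled by transcript length and by library, so that levels of different genes can be set side by side. Summed FPKM per library ran from 676961 to 738697 in controls and from 627190 to 645621 in mutants, without overlap. The main fit took FPKM as deposited, with no rescaling for this difference. Absolute depth is unknown, and depth relative to control library 1, estimated from low values, ran from 0.504 in mutant library 1 to 1.28 in mutant library 2. Globin genes took 3.40 to 6.21% of summed FPKM in controls and 2.30 to 3.17% in mutants. All 5 lung identity markers (Nkx2-1, Sftpc, Tbx4, Tbx5 and Foxf1) were measured, and the first 2 and Foxf1 fell in mutants, Sftpc from 53.7 to 0.586 FPKM. Of the 12742 genes that averaged 1 FPKM or more, limma called 1.71% higher and 1.63% lower in mutants at an adjusted p under 0.05. The 3 mutant values all lay above the 3 control values for 14.9% of them and all below for 14.6%.

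Among the 8 of the 9 genes that passed this filter, 0 rose and 1, Plaur, fell at that threshold. Plat, Serpine2, Mmp2, Mmp14 and Timp2 were higher in every mutant library than in every control library without passing the test, and Timp1 and Timp3 overlapped between groups. The median log2 change of the 8 genes was 0.24, against -0.01 over all genes tested. Of the 8, 5 had an unadjusted p under 0.05, as had 2935 of the 12742 genes.

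**Figure D1:**
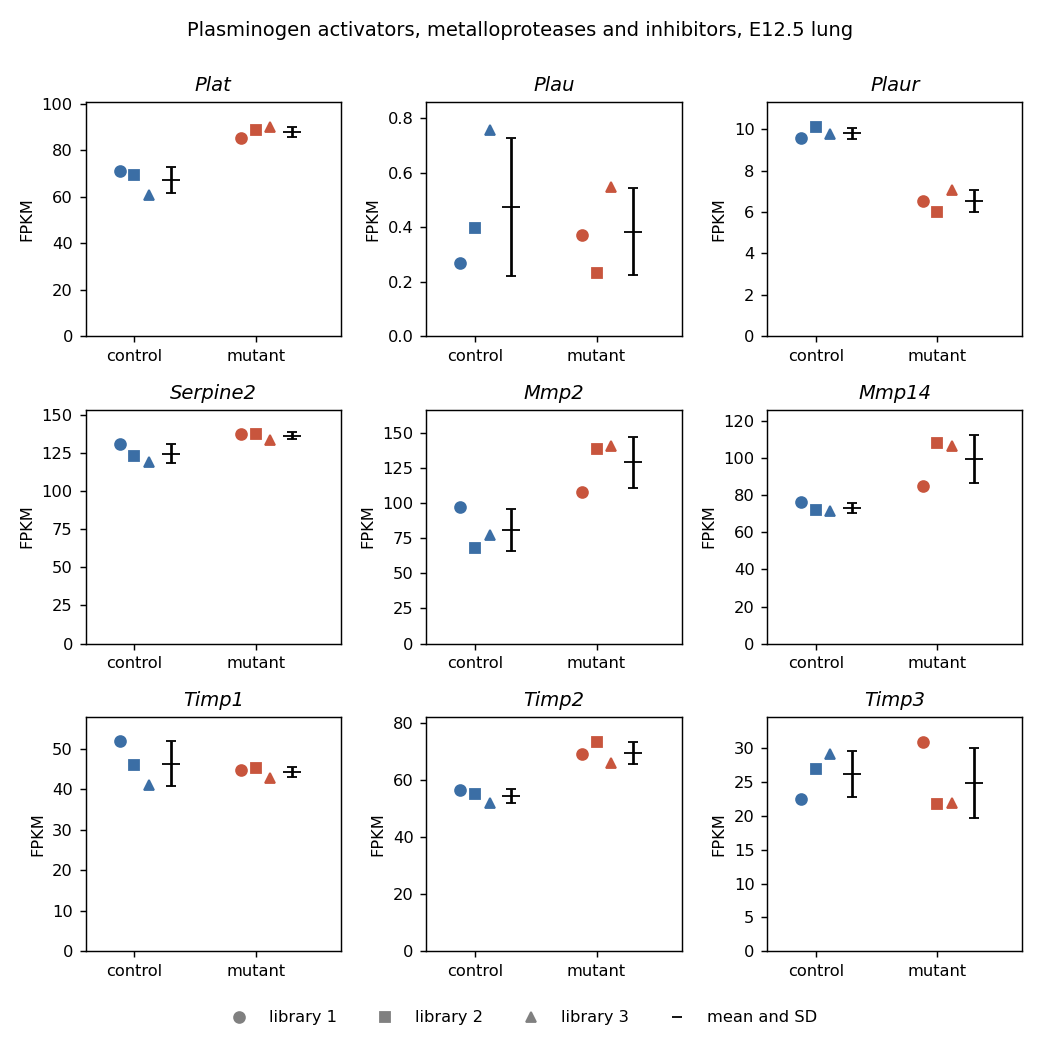
FPKM of the 9 genes in each library (points, 3 control and 3 mutant libraries), with the mean and SD of each group beside the points; every axis starts at 0 and has its own range. Plaur is lower in the 3 mutants (6.01 to 7.07 FPKM) than in the 3 controls (9.56 to 10.1 FPKM), and Plau stays under 1 FPKM throughout.

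In level, Serpine2 was highest, with a mean of 130 FPKM over the 6 libraries, above 92.9% of the tested genes. Mmp2 (105 FPKM), Mmp14 (86.4 FPKM), Plat (77.5 FPKM), Timp2 (61.9 FPKM), Timp1 (45.3 FPKM) and Timp3 (25.5 FPKM) followed. Plaur averaged 8.17 FPKM, above 37.9% of the tested genes, and Plau 0.428 FPKM. The control values of Mmp2, Mmp14 and Plat ran into each other, as did those of Timp2 and Timp1, while Serpine2 exceeded Mmp2 in all 3 control libraries. In mutants Serpine2 exceeded Mmp2 in only 1 library of 3, and Timp2 lay above Timp1 without overlap. The inhibitor transcript Serpine2 and the activator transcript Plat were thus abundant beside a nearly undetected Plau.

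Plaur encodes the GPI-anchored uPA receptor, which gathers plasmin formation at the cell surface. Its gene lies on chromosome 7 from 24462484 to 24475968, plus strand (GENCODE M21, GRCm38). Promoter sequence from RefSeq (GRCm38.p6) was matched for 6 of the 9 genes: Plaur, Serpine2, Mmp14, Timp1, Timp2 and Timp3. Below are the 120 bases before the start site for the gene that fell, for a metalloprotease that was higher in every mutant library, and for an inhibitor whose groups overlapped. The windows lie at chr7:24462363-24462482 (Plaur), chr14:54431478-54431597 (Mmp14) and chrX:20870046-20870165 (Timp1), all on the plus strand, and meet no GENCODE exon. Capitals mark matches to the AP-1 motif or to the GC box on either strand.
Plaur: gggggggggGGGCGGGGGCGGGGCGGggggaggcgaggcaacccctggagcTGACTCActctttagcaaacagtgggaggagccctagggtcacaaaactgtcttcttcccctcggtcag
Mmp14: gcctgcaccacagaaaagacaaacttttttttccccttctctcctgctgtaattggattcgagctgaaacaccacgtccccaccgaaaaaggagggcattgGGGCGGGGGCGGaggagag
Timp1: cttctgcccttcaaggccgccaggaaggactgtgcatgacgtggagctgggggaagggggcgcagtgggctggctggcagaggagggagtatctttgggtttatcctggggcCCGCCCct

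The AP-1 motif was searched as TGANTCA on both strands of the 250 bases before each start. It matched in Plaur alone among the 6 promoters, starting 69 bases before the start site, and in 6.75% of all 32851 promoters in the table. The GC box was searched as GGGCGG in the same windows and matched in all 6, and in 32.7% of all promoters. Serpine2 had the most matches (6), followed by Plaur (3) and Mmp14 (2). The matches in Plaur adjoin, and those starting 105 and 100 bases before the start share a base. The TATA box, as TATAAA, matched in 0 of the 6 and in 12.4% of all. The CCAAT box, as CCAAT, matched in Mmp14, Timp1 and Timp2 and in 33.8% of all. G and C made up 54.4% (Timp1) to 78.8% (Serpine2) of the 6 windows. These are letter matches only, and no binding was measured.

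For Plaur, control libraries 1 to 3 gave 9.56, 10.1 and 9.76 FPKM, and mutant libraries 1 to 3, in the order kept below, gave 6.54, 6.01 and 7.07 FPKM. All 3 mutants lay below all 3 controls, and the spread within each group was narrow. The mutant mean was 33.3% lower (log2 change -0.52, SE 0.10, 95% interval -0.76 to -0.29, adjusted p = 0.041). The call ended on omitting any library other than mutant library 1 (adjusted p up to 0.17), although the change then stayed between -0.57 and -0.47. It also ended with no filter on low genes (adjusted p = 0.066) and when only genes averaging 5 FPKM or more were tested (0.052). The same held after globin and small RNA genes were removed and the libraries rescaled to equal sums (0.068).

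Plau, which encodes the ligand of that receptor, lies on chromosome 14 from 20836660 to 20843385. It had control values of 0.268, 0.398 and 0.755 FPKM and mutant values of 0.371, 0.230 and 0.547 FPKM. The groups overlapped, and at these levels counting error is large. Plau was under the filter. In a fit of all 18801 genes above the floor its log2 change was -0.08 with an SE of 0.14 (adjusted p = 0.80). Its receptor was the more abundant transcript in every library, with a Plau/Plaur ratio of 0.0280 to 0.0773 in controls and 0.0383 to 0.0774 in mutants.

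Plat, the tissue-type activator known for fibrin dissolution and for roles in neurons, lies on chromosome 8 from 22757727 to 22782844. Control libraries gave 71.3, 69.3 and 60.8 FPKM, and mutant libraries gave 85.3, 88.6 and 89.9 FPKM. The groups were apart, and the mutants varied less (CV 2.65%) than the controls (8.33%). The mutant mean was 31.0% higher, with a log2 change of 0.39 (SE 0.09, 95% interval 0.18 to 0.59) that missed the threshold (adjusted p = 0.060). It missed it also with any single library left out (adjusted p 0.054 to 0.21), but passed after quantile normalization (0.042). It also passed after globin and small RNA genes were removed and the libraries rescaled to equal sums (0.014).

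Serpine2, a serpin that inhibits tPA, uPA, plasmin and thrombin, lies on chromosome 1 from 79794197 to 79861180, minus strand. Its values were 131, 123 and 119 FPKM in controls and 138, 137 and 134 FPKM in mutants. The highest control was only just under the lowest mutant. The mean was 9.57% higher (log2 change 0.13, SE 0.08, 95% interval -0.05 to 0.31, adjusted p = 0.34). The Plat/Serpine2 ratio within a library does not change with a factor applied to that whole library. It was 0.544, 0.563 and 0.512 in controls and 0.620, 0.644 and 0.672 in mutants. Every mutant ratio exceeded every control ratio.

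Mmp2, or gelatinase A, degrades denatured collagen and basement membrane collagen and lies on chromosome 8 from 92827291 to 92853420. It had control values of 96.9, 68.0 and 76.9 FPKM and mutant values of 108, 138 and 140 FPKM. The mutants were higher without overlap, but control library 1 and mutant library 1 were close to each other, and the controls had a CV of 18.4%. The mutant mean was 1.60 times the control mean (log2 change 0.67, SE 0.16, 95% interval 0.31 to 1.04, adjusted p = 0.063). Leaving out mutant library 1 brought the adjusted p to 0.040, and leaving out any other library raised it to between 0.092 and 0.22.

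Mmp14, on chromosome 14 from 54431612 to 54445364, encodes the membrane type 1 enzyme that cleaves pro-MMP2 and fibrillar collagen. Control libraries gave 76.4, 71.8 and 71.3 FPKM, and mutant libraries gave 84.8, 108 and 106 FPKM. The controls were tight (CV 3.81%), and mutant library 1 again lay nearest to them. The mean was 36.3% higher (log2 change 0.43, SE 0.11, 95% interval 0.18 to 0.69, adjusted p = 0.076). Without mutant library 1 it passed (adjusted p = 0.025, log2 change 0.55). That library was the shallowest of the 6, with 7837 genes at the floor of 0.01 FPKM. Control library 3, at 71.3 FPKM, was nearly as shallow (relative depth 0.533 against 0.504), with 7829 genes at the floor. The part of depth in these values was not tested.

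Timp2, on the minus strand of chromosome 11 from 118301069 to 118355740, encodes the inhibitor that also docks pro-MMP2 to MMP14. It had control values of 56.4, 55.1 and 51.7 FPKM and mutant values of 68.9, 73.4 and 65.9 FPKM. The groups were apart, with every mutant library above every control library. The mean was 27.5% higher (log2 change 0.34, SE 0.08, 95% interval 0.15 to 0.54, adjusted p = 0.067). BC100451, annotated at the same locus in the table, stayed at or under 0.0972 FPKM.

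Timp1, the soluble inhibitor, lies on the X chromosome from 20870166 to 20874735, opposite in strand to the synapsin gene Syn1, in whose span it sits. Control libraries gave 52.1, 46.1 and 41.1 FPKM, and mutant libraries gave 44.7, 45.3 and 42.8 FPKM. All 3 mutant values fell inside the control range. The log2 change was -0.06 (SE 0.10, 95% interval -0.30 to 0.18, adjusted p = 0.77).

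Timp3, the matrix-bound inhibitor, which also blocks ADAM17, lies on chromosome 10 from 86300372 to 86349506 within the span of Syn3, which runs on the opposite strand. It had control values of 22.5, 26.9 and 29.1 FPKM and mutant values of 30.9, 21.8 and 21.9 FPKM. The highest value of all 6 was that of mutant library 1, and the other two mutants were the lowest. The log2 change was -0.08 (SE 0.16, 95% interval -0.46 to 0.29, adjusted p = 0.80). The libraries do not mark strand, so reads of Syn1 and Syn3 cannot be told from those of the inhibitors where exons overlap. Syn1 was at most 0.515 FPKM and Syn3 at most 1.11 FPKM. Araf, a kinase gene that the table places at the locus of Timp1 and that GENCODE ends before Timp1 starts, measured 39.9 to 57.8 FPKM over the 6 libraries, near the level of Timp1. Its part in the values of Timp1 was not tested.

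**Figure D2:**
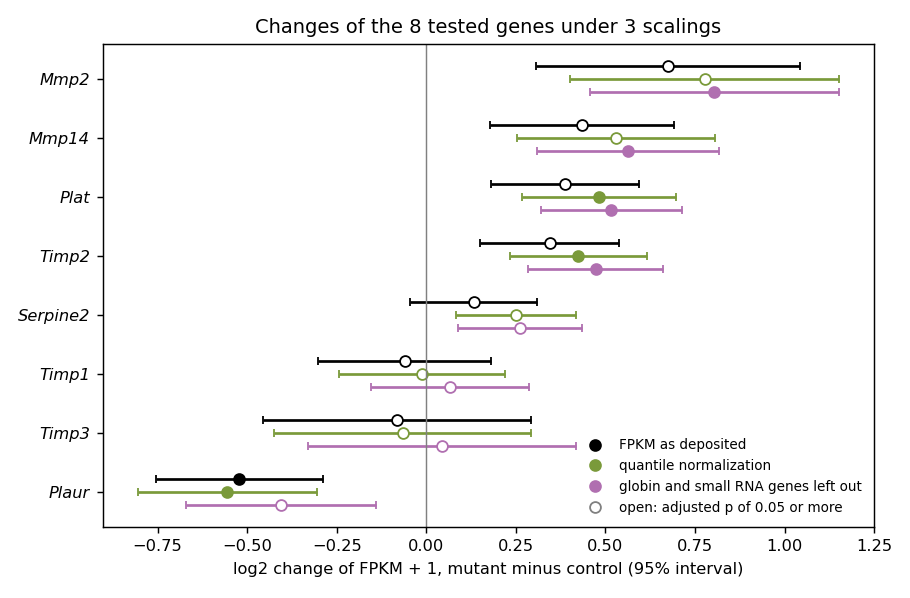
Log2 change (mutant minus control, 95% interval) of the 8 tested genes with FPKM as deposited, after quantile normalization, and after removal of globin and small RNA genes and rescaling; filled points passed an adjusted p of 0.05. Plaur alone is filled as deposited, and Plat, Mmp2, Mmp14 and Timp2 are filled after that removal and rescaling.

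Which of the genes passed moved with the scaling, as it did with the filter and with single libraries. When globin and small RNA genes were removed and the libraries brought to equal sums, the median over all genes shifted upward by 0.114. On that scale Plat (log2 change 0.52), Mmp2 (0.80), Mmp14 (0.56) and Timp2 (0.47) rose, with adjusted p between 0.014 and 0.025, and Plaur (-0.41) no longer passed. The calls over all genes became 841 higher (6.66% of the genes tested) and 173 lower (1.37%), from 218 and 208. Timp1 and Timp3 changed sign there, to 0.07 and 0.04, and passed under neither scaling. After quantile normalization Plat and Timp2 rose and Plaur fell, where 1.66% of all genes were called higher and 1.15% lower.

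Ratios within a library set enzymes against inhibitors and do not change with a factor applied to the whole library. Quantile normalization is not such a factor, and the ratios are of FPKM as deposited. Summed Mmp2 and Mmp14 over summed Timp1, Timp2 and Timp3 was 1.32, 1.09 and 1.21 in controls and 1.33, 1.75 and 1.89 in mutants. The groups did not overlap, but mutant library 1 exceeded control library 1 by very little. Mmp14/Timp2 was 1.35, 1.30 and 1.38 in controls and 1.23, 1.47 and 1.61 in mutants, with mutant library 1 below all controls. Mmp2/Timp2 overlapped as well, at 1.48 ± 0.243 in controls and 1.86 ± 0.286 in mutants (SD, n = 3). Mmp2/Mmp14 was 1.27, 0.946 and 1.08 in controls and 1.27, 1.28 and 1.32 in mutants, so the mutants had nearly identical proportions of the enzymes. Timp2/Timp3 was 2.11 ± 0.371 in controls and 2.87 ± 0.580 in mutants, and Timp1/Timp3 1.81 ± 0.460 and 1.83 ± 0.333. No test was made of the ratios.

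**Figure D3:**
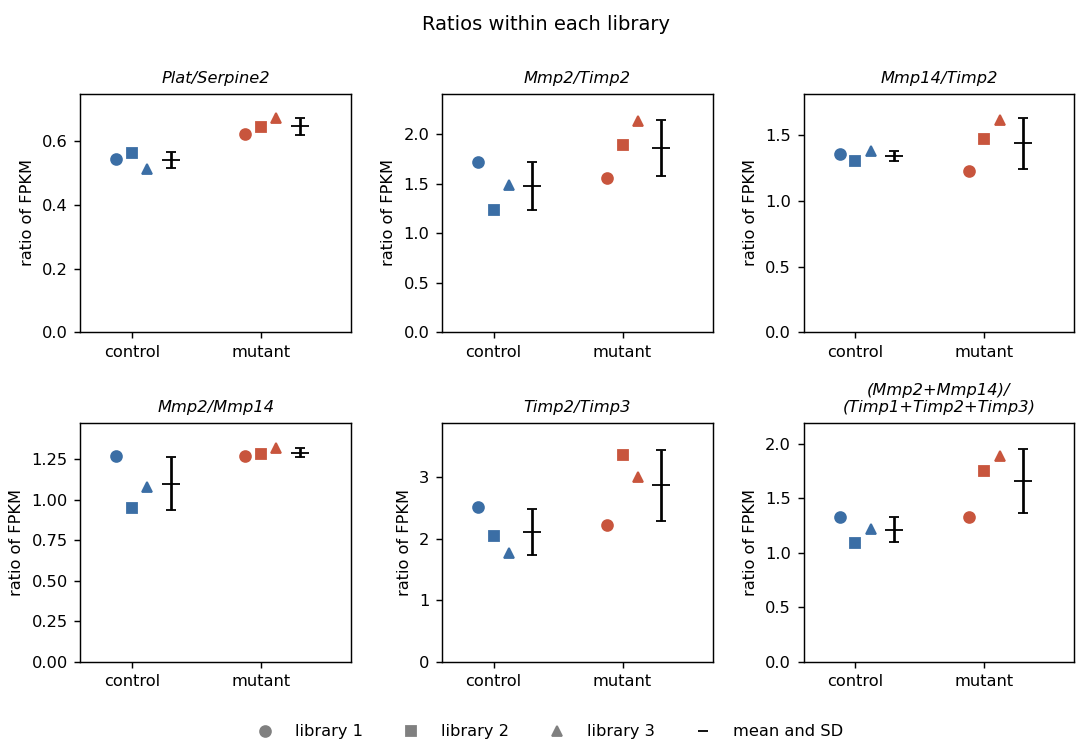
Ratios of FPKM within each library (points, 3 per group) with the mean and SD of each group; axes start at 0. Plat/Serpine2 and the summed ratio of metalloproteases to TIMPs are higher in all 3 mutants than in all 3 controls, and the other 4 ratios overlap.

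Other genes of the plasminogen system gave 0 calls in either direction among 14 tested of 26 listed (median log2 change 0.13), with 5 at an unadjusted p under 0.05. Directions were mixed, with 8 positive and 6 negative changes, where 48.7% of all genes tested had positive changes. After removal of globin and small RNA genes and rescaling, 5 of the 14 were called higher and 0 lower (median 0.25), against 6.66% and 1.37% of all genes. Plasminogen itself (Plg) had means of 0.0200 FPKM in controls and 0.0828 FPKM in mutants, both near the floor. Lrp1, the endocytic receptor that clears complexes of activator and serpin, averaged 6.47 ± 0.676 FPKM (SD, n = 3) in the control and 10.8 ± 1.86 FPKM in the mutant libraries (adjusted p = 0.057). Serping1, the C1 inhibitor, measured 52.8 ± 0.881 and 66.8 ± 3.56 FPKM (adjusted p = 0.065). Igf2r, which can bind plasminogen and the uPA receptor, measured 22.4 ± 3.22 and 32.8 ± 3.54 FPKM (adjusted p = 0.067).

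Of 21 other matrix metalloproteases, 5 were tested and 0 were called (1 higher after that removal and rescaling). At the floor in all libraries were 7, Mmp3, Mmp7 and Mmp10 among them. Mmp11 (stromelysin 3) measured 40.5 ± 6.30 and 52.4 ± 2.70 FPKM (adjusted p = 0.13). Mmp15, another membrane-type enzyme, measured 5.67 ± 0.357 and 4.30 ± 0.941 FPKM (adjusted p = 0.22), and Mmp23 12.9 ± 3.88 and 19.0 ± 5.46 FPKM (adjusted p = 0.29). Gelatinase B, Mmp9, had means of 0.175 and 0.192 FPKM. Mmp2 and Mmp14 thus had higher levels than any of these 21 genes.

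ADAM and ADAMTS proteases gave 3 that rose and 0 that fell among 22 tested of 26, and 21 of the 22 had a positive change (median 0.28, against -0.01 over all genes, of which 1.71% were called higher and 1.63% lower). After removal of globin and small RNA genes and rescaling, 8 of the 22 were called higher (6.66% of all genes). With no filter on low genes 1 of 26 was, and with the replicate number as a block 0 were. The groups were apart and higher in mutants for 11 of the 22, as for 14.9% of all genes tested. Adamts1, which cleaves the proteoglycan versican, rose from 37.6 ± 1.31 to 54.6 ± 1.42 FPKM (log2 change 0.53, SE 0.08, adjusted p = 0.020). Adamts15 rose from 17.9 ± 2.08 to 29.0 ± 3.68 FPKM (adjusted p = 0.042), and Adam12 from 14.5 ± 2.06 to 22.1 ± 1.15 FPKM (adjusted p = 0.043). The negative change was that of Adamts20, at 5.66 ± 0.982 and 3.57 ± 0.466 FPKM (adjusted p = 0.089). The calls of Adamts15 and Adam12 ended whichever library was omitted, and that of Adamts1 on omitting any control library or mutant library 2 (adjusted p up to 0.18, 0.17 and 0.12 for Adam12, Adamts15 and Adamts1).

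Other inhibitors and regulators of metalloproteases gave 4 that rose and 1 that fell among 15 tested of 18, where 1.71% and 1.63% of all genes did (median 0.23, against -0.01). Reck, a GPI-anchored protein known to restrain MMP2, MMP9 and MMP14, rose from 15.5 ± 0.269 to 22.2 ± 1.22 FPKM (log2 change 0.49, SE 0.09, adjusted p = 0.034). Thbs2, a matricellular protein that takes part in clearing MMP2, rose 2.28-fold, from 6.50 ± 1.25 to 14.8 ± 0.486 FPKM (adjusted p = 0.0099). Sparc, a collagen-binding matricellular protein, rose from 304 ± 14.6 to 420 ± 31.1 FPKM, and Pcsk6, a proprotein convertase, from 2.22 ± 0.504 to 4.70 ± 0.796 FPKM. Pcolce2, an enhancer of procollagen processing, fell from 3.82 ± 0.936 to 1.78 ± 0.0154 FPKM (adjusted p = 0.048). Furin, the convertase that activates MMP14, measured 11.1 ± 0.446 and 13.2 ± 0.895 FPKM (adjusted p = 0.20). Timp4 averaged 0.427 and 0.453 FPKM. The call of Pcolce2 ended whichever library was left out, and that of Pcsk6 on leaving out any but mutant library 1. Those of Reck and Sparc ended without any control library or mutant library 2, and that of Thbs2 (adjusted p then at most 0.086) without mutant library 2, control library 2 or control library 3. For the other 4 genes the adjusted p reached at most 0.17. With no filter on low genes Sparc, Pcsk6 and Pcolce2 were no longer called.

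**Figure D4:**
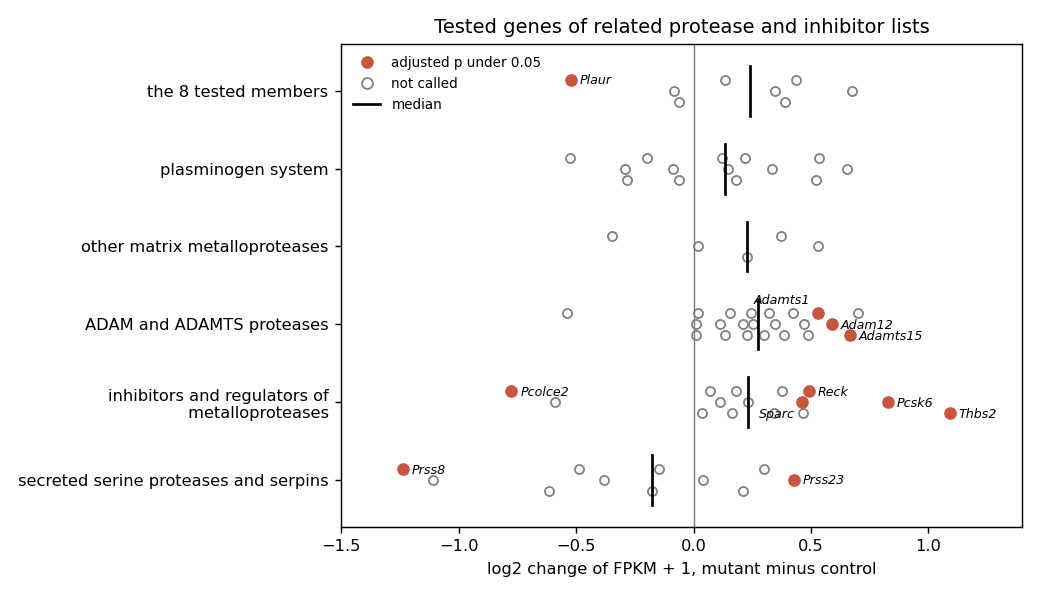
Log2 change (mutant minus control) of each tested gene of the 8 members and of 5 lists of related proteases and inhibitors, with called genes filled and named and a bar at each median; the vertical offset within a list only separates points. The ADAM and ADAMTS genes lie to the right of 0 except Adamts20.

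Markers of other lung cells moved beside these values. Over all genes tested, 48.7% had positive changes, 1.71% rose and 1.63% fell. Of 10 mesenchyme markers, 10 had positive changes and 3 rose. Tbx4 and Tbx5 were counted there and under lung identity. Foxf1, also a mesenchyme gene but listed only under lung identity, fell from 71.2 to 34.6 FPKM (adjusted p = 0.0054 by limma). Summed levels of the 10 were 833 to 1034 FPKM in controls and 1306 to 1600 FPKM in mutants. Most of these sums came from Col1a1, Col1a2 and Col3a1. These averaged 176, 168 and 379 FPKM in controls and 311, 287 and 605 FPKM in mutants. Of 10 leukocyte markers, 10 had positive changes and 2 rose (summed 154 to 207 against 270 to 382 FPKM), and of 9 endothelial markers 8 and 1 (189 to 214 against 210 to 254 FPKM). Of 10 epithelial markers, 9 had negative changes and 5 fell (298 to 379 against 132 to 188 FPKM). Smooth muscle markers gave 0 calls among 6, and erythroid markers 2 that fell among 8. Of 4 tested mesothelium markers 1 rose, and of 6 markers of neural crest and neurons 0 were called in either direction. No defining marker of these lists was at the floor in all libraries. Their part in the levels of the protease and inhibitor genes was not tested.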

How the data were processed

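RNA of dissected E12.5 lungs had been turned into libraries with a low-input kit that does not mark strand and sequenced as paired-end reads, per the labels' protocols. The deposited values are FPKM per gene and library, made by the authors, and TopHat, Bowtie2, Cufflinks and mm10 (GRCm38) are named in the submitters' processing notes. Their versions and roles, and the annotation, are not stated. Of 24341 genes, 3 carried a failure mark in mutant library 1 and were left out. The floor is 0.01 FPKM.

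The 12742 genes averaging 1 FPKM or more over the 6 libraries were compared, mutant minus control, on log2(FPKM + 1) by limma 3.58.1 (R 4.3.3) with an intensity trend, 2-sided, with Benjamini-Hochberg adjustment over all of them, and called at an adjusted p under 0.05. This scale understates changes of low genes, so group means are given. Relative depth came from the most common ratio of low values (up to 0.3 FPKM) to control library 1. Gene bounds are from GENCODE M21 and promoters from RefSeq GRCm38.p6. Figures were drawn with matplotlib 3.10.9.

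The members, the lists and the rule for naming genes (all members, then of each list its called genes or the 3 with the smallest p) were chosen with earlier results of these data known. Genes near the floor, Furin, Timp4, Adamts20, Araf and BC100451 were named after their values were seen. A gene of these lists is not reported here. Ddc8, listed as a neighbour, was not found by that symbol, and Syn2 with Timp4 was at or under 1.34 FPKM. Alternatives were other pseudocounts, filters, scalings and variance settings, a threshold of 0.1, a replicate block and leaving out each library.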

Additional observations from a re-analysis of the deposited data

How the results depend on the processing

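With the 9 genes, 0 were called higher and 1 lower. That became 4 and 0 after removal of globin and small RNA genes with rescaling to equal sums. It was 2 and 1 after quantile normalization and 4 and 1 at a threshold of 0.1. There were 0 lower with no filter, at a mean of 5 FPKM or more and with the replicate block. With 1 library left out, 0 to 2 were higher and 0 to 1 lower. The 426 calls over all genes became 242 with no filter, 1014 after that removal, 1138 at the threshold of 0.1 and 52 with the replicate block, and 52 to 795 with 1 library left out. Fewer samples or more genes are part of these settings' construction; otherwise the cause was not tested. After that removal, Timp1 and Timp3 had log2 changes of 0.067 and 0.0439; with 1 library left out Timp1 ran from -0.143 to 0.0237 (without control library 1) and Timp3 from -0.241 to 0.00040 (without mutant library 2). The other 6 tested genes kept their direction with either other pseudocount, under both other scalings and with any library left out; the remaining alternatives leave a log2 change as it is. Same-numbered libraries did not deviate together (r = -0.089, -0.078 and -0.026 across genes), so the numbers are not taken as pairs. With 1 library left out, the log2 difference of the Plau/Serpine2 ratio (-0.394) ran from -0.778 to 0.0419. That of Plau/Plaur (0.326) ran from -0.00078 to 0.733, and that of Timp1/Timp3 (0.0232) from -0.143 to 0.214. The difference of Mmp14/Timp2 (0.0886) ran from 0.00141 to 0.197 and so kept its sign, as did those of the other 5 ratios. Of the related lists, the inhibitors and regulators gave 2 higher and 0 lower with no filter, and all 5 gave 0 calls with the replicate block. How precisely Plau and other genes under 1 FPKM were measured depends on depth, and absolute depth is unknown.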

Other observations

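The list labelled secreted serine proteases and serpins, outside the plasminogen system, gave calls in both directions. Some of its genes encode membrane-bound or intracellular proteins, Tmprss2 and Serpinb9 among them. Of 11 tested of 15 listed, 1 rose and 1 fell (median log2 change -0.18), where 1.71% and 1.63% of all genes did. Prss8, the channel-activating protease prostasin of epithelia, fell from 14.1 ± 3.74 to 5.36 ± 1.16 FPKM (SD, n = 3, log2 change -1.24, adjusted p = 0.029 by limma), a call that ended on leaving out any library other than mutant library 1 (adjusted p up to 0.11). Prss23 rose from 13.0 ± 0.255 to 17.8 ± 0.852 FPKM (adjusted p = 0.047), and its call ended whichever library was left out. With no filter on low genes neither was called.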
